A study of Mus musculus with 265 samples.

Results

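The genes that push a cell through the G1 phase of its cycle, and those that hold it there, were examined in the accessible chromatin of single mouse pre-B cells. The set held 10 genes. The 5 drivers were the D-type cyclins Ccnd1, Ccnd2 and Ccnd3 and their kinases Cdk4 and Cdk6. The 5 inhibitors were the CDK inhibitors Cdkn1a, Cdkn1b and Cdkn2c and the pocket proteins Rb1 and Rbl2. A region of the deposited matrix was a member when the nearest protein-coding start site in GENCODE vM21 belonged to one of these genes and lay within 50 kb. This rule gave 29 of the 20103 regions, 14 at drivers and 15 at inhibitors.

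D-type cyclins bind Cdk4 and Cdk6, and the active kinases phosphorylate pocket proteins such as Rb1 and Rbl2, which then release E2F factors that switch on genes of DNA replication. Cdkn2c belongs to the Ink4 family and keeps Cdk4 and Cdk6 from their cyclins, whereas Cdkn1a and Cdkn1b bind assembled cyclin and kinase complexes. Cyclin D3 is known for its part in the expansion of pre-B cells, and Ikaros is known for ending that expansion as the cells mature.

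The data were single-cell ATAC-seq, an assay of open chromatin in which a transposase cuts accessible DNA and the fragments found in each region are counted. All cells came from 1 mouse pre-B cell line, B3, carrying Ikaros fused to a domain (ERt2-Ikaros) that lets the protein enter the nucleus when 4-hydroxytamoxifen (4OHT) is given. The 0-hour cells had no 4OHT and the 24-hour cells had been in 4OHT for 24 hours, with a further dose midway. The study describes the induction as a rise in the amount of nuclear Ikaros, so the 0-hour cells were not free of it. Treated cells without the fusion were not analysed here, so the drug and Ikaros cannot be told apart. Cells were captured in 2 Fluidigm C1 runs per time-point, and the run was the replicate: 0-hour run 1 (48 cells), 0-hour run 2 (47 cells), 24-hour run 3 (60 cells) and 24-hour run 4 (72 cells). No source says that runs came from separate cultures, so p-values measure the spread between these runs, which may be technical.

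The 4 runs held between 92639 and 164357 counts in all regions, and 0-hour run 1 was deepest per cell, with a median of 2898 counts against 1676 to 1840 in the other runs. Of 12 pre-B marker genes, 9 had a region within 1 kb of their start. Pooled over their 12 regions, 48.6% to 72.9% of the cells of a run had signal in any of them. Gene by gene, the share was 0% to 25% of the cells of a run. No region lay within 1 kb of the start of any T cell, erythroid or fibroblast marker gene searched. Of 4 myeloid marker genes 1 had such a region, with signal in 0% to 6.38% of cells. Because depth per cell differed, shares of cells are given as deposited and after thinning each cell to 837 counts. Thinning dropped the 23 cells under that depth (0, 1, 13 and 9 in runs 1 to 4).

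Signal was found at 9 of the 10 genes. Cdk4 had no member region: the nearest regions on each side of its start, 5147 bp upstream and 6825 bp downstream, lay closer to the starts of March9 and Tspan31. Ccnd3 and Cdkn1a had 5 regions each, Ccnd2 had 4, Ccnd1, Cdkn2c and Rb1 had 3 each, and Cdk6, Cdkn1b and Rbl2 had 2 each. By annotation 10 regions lay in introns, 7 between genes, 7 over UTRs, 4 over exons of noncoding transcripts and 1 over a coding exon. Of the members 31.0% lay within 1 kb of the start site, against 43.7% of all regions.

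**Figure D1:**
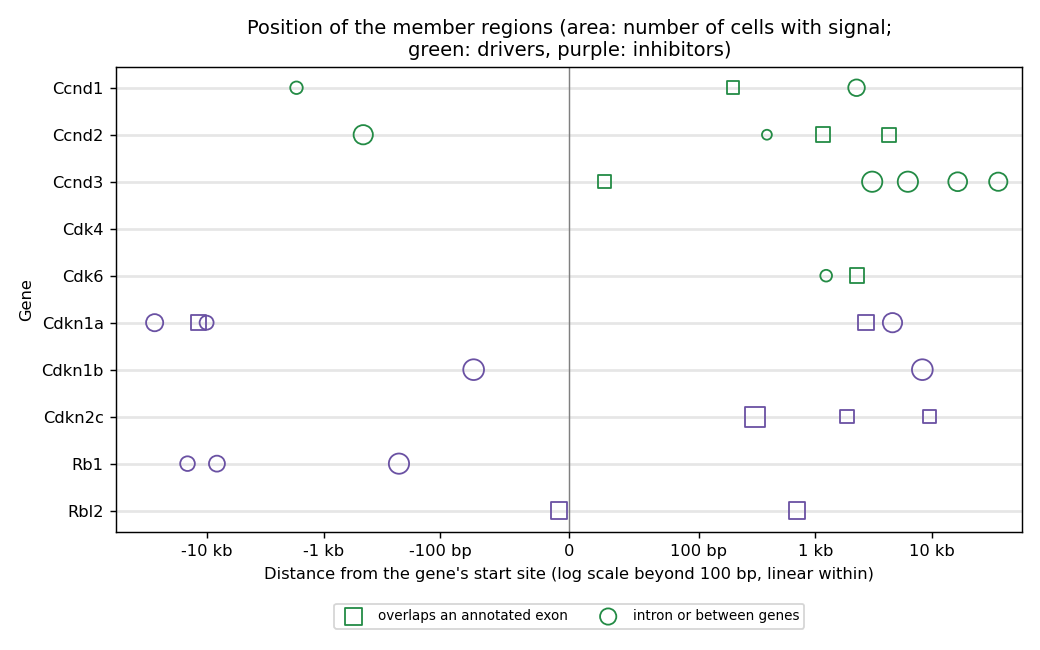
Position of the 29 member regions relative to the start site of their gene (horizontal axis, log scale beyond 100 bp; 1 row per gene). The area of a symbol follows the number of cells with signal (5 to 22), squares overlap an annotated exon, and the row of Cdk4 is empty.

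The sequences below are those of the intronic and intergenic regions in which the shares of cells of the 2 time-points did not overlap, together with the region at the Cdkn1b start. They were read from GRCm38.p6, the same build as the deposited mm10 regions, on the strand of the gene, with both ends of the deposited interval included. The sources used here do not say whether the deposited starts count from 0 or from 1. Capitals mark GGGAA or its reverse complement TTCCC, the core letters bound by Ikaros.
Ccnd1, 1706 bp upstream of the start, chr7:144941563-144941699, minus strand: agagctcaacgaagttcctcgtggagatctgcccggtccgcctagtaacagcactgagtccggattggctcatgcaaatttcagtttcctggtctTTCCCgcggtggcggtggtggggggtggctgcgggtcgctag
Ccnd2, 456 bp upstream, chr6:127152604-127152694, minus strand: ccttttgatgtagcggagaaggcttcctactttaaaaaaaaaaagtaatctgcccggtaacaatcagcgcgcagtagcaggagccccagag
Ccnd3, 16687 bp downstream, chr17:47521673-47521804, plus strand: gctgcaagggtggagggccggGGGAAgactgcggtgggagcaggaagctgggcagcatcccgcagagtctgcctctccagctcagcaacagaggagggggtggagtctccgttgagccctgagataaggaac
Ccnd3, 37193 bp downstream, chr17:47542172-47542316, plus strand: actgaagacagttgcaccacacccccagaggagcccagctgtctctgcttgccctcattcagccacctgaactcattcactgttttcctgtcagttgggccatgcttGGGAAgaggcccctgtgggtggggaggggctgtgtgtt
Cdkn1a, 4596 bp downstream, chr17:29095512-29095633, plus strand: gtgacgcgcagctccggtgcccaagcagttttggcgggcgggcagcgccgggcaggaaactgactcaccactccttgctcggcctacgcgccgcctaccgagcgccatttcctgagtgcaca
Cdkn1b, 74 bp upstream, chr6:134920261-134920393, plus strand: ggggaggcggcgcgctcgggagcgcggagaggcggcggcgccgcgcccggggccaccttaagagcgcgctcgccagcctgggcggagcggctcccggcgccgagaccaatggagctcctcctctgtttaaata
Rb1, 14703 bp upstream, chr14:73340494-73340557, minus strand: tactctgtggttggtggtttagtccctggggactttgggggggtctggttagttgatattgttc

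The 3 cyclin D regions shown with less signal at 24 hours each held 1 core match. The Rb1 region, also with less signal at 24 hours, held none, and so did the Ccnd2, Cdkn1a and Cdkn1b regions. This is a description of the 7 sequences, and that of Rb1 is not unique in the genome. In windows of 150 bp around the midpoints, 12 of 29 members held GGGAA on either strand (41.4%), and so did 39.2% of all 20103 regions, so the letters were about as frequent at the members as elsewhere. Drivers and inhibitors had 6 such windows each. The window of the Ccnd2 region 456 bp upstream was among them, since it is wider than the printed interval of 91 bp.

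The longer TGGGAA, which includes the core, was in 4 member windows, 1 at Ccnd3, 1 at Cdkn1a and 2 at Rbl2 (13.8%, against 11% of all regions). The E2F letters GCGGGAA, which also include the core, were in 1 member window, that of the upstream Ccnd1 region, and in 3.03% of all regions. The capitals of the Ccnd1 sequence lie inside that match. The FOXO letters TGTTTAC were in 1 window, at the Ccnd3 start, against 1.36% of all regions. The ETS letters CCGGAAG were in no member window and in 9.34% of all regions, the E protein letters CACCTG in 1 (Ccnd3, 9.41% of all), the Myc letters CACGTG in 1 (Cdkn2c, 5.12% of all) and the Runx letters TGTGGT in 5 (14.7% of all). Each motif was searched on both strands.

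Each member region had signal in few cells, 5 to 22 of 227, with a median of 13 cells for the members and for all regions alike. No value was above 2, and 50.1% of the values above 0 at members were 2, against 53.4% over all regions. Per length, Cdkn1b and Rb1 had the highest summed level, 52.3 (range of the 4 runs 43.9 to 73.2) and 50.5 (37.2 to 70.7) CPM per 100 bp of region, where CPM are the counts of a run scaled to a common total. Ccnd3 (41.6), Ccnd2 (40.6), Cdkn1a (33.0), Rbl2 (31.5), Cdkn2c (28.9), Ccnd1 (25.3) and Cdk6 (16.6, 11.3 to 27.5) followed on the same scale, each as the mean of the 4 runs. The ranges of neighbours in this order overlapped.

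**Figure D2:**
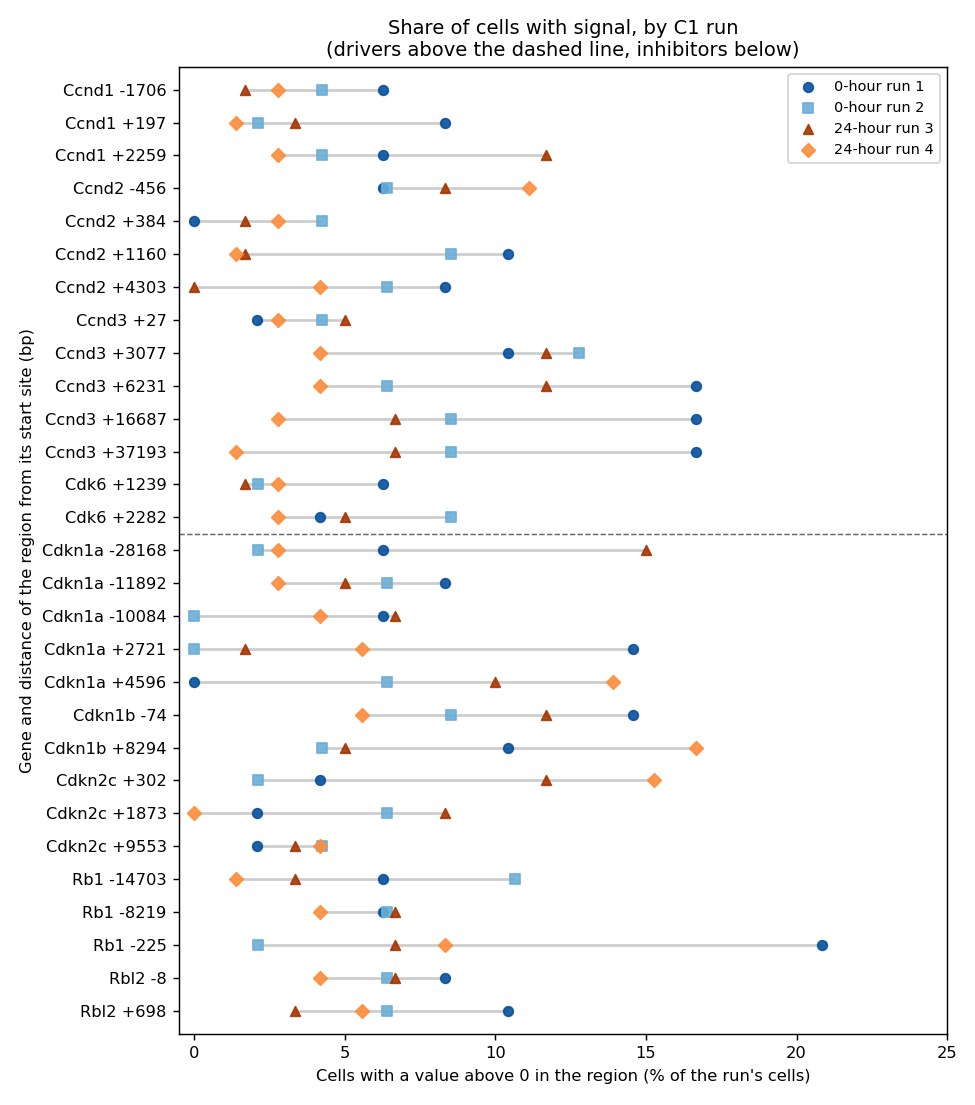
Share of the cells of each C1 run with a value above 0 (horizontal axis, percent) in each of the 29 member regions, named by gene and by signed distance from its start site in bp, negative upstream. In the Cdkn2c region at +302 the 24-hour runs (11.7% and 15.3%) lie above the 0-hour runs (4.17% and 2.13%), and in the Ccnd2 region at +1160 they lie below.

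The comparison of the time-points asked whether accessibility at drivers and at inhibitors changed once Ikaros had entered the nucleus. No member region passed between 0 and 24 hours in the edgeR quasi-likelihood test with Benjamini-Hochberg adjustment over all 20103 regions at a threshold of 0.05. The smallest adjusted p among the 29 members was 0.252. The test called few regions anywhere: 8 higher at 24 hours (0.0398% of those tested) and 3 lower (0.0149%), and DESeq2 called 0. At an unadjusted p below 0.05, 1 of 29 members was higher at 24 hours, against 5.11% of all regions, and 0 were lower, against 7%. DESeq2 gave the same 1 and 0 for the members, against 2.25% and 3.15% of all regions.

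The median log2 difference, 24 hours minus 0 hours, was -0.66 over the 14 driver regions and 0.12 over the 15 inhibitor regions, against -0.06 over all regions. Of the driver regions 9 had a value below 0, and of the inhibitor regions 6, against 52.0% of all regions. Within the inhibitors, 8 of the 10 CDK inhibitor regions were above 0 (median 1.00) and 4 of the 5 pocket protein regions were below it (median -0.20). Values at starts ran higher than elsewhere in the whole matrix: the median was 0.33 over the 8786 regions within 1 kb of a start, and 0.12 over the 9 members there.

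**Figure D3:**
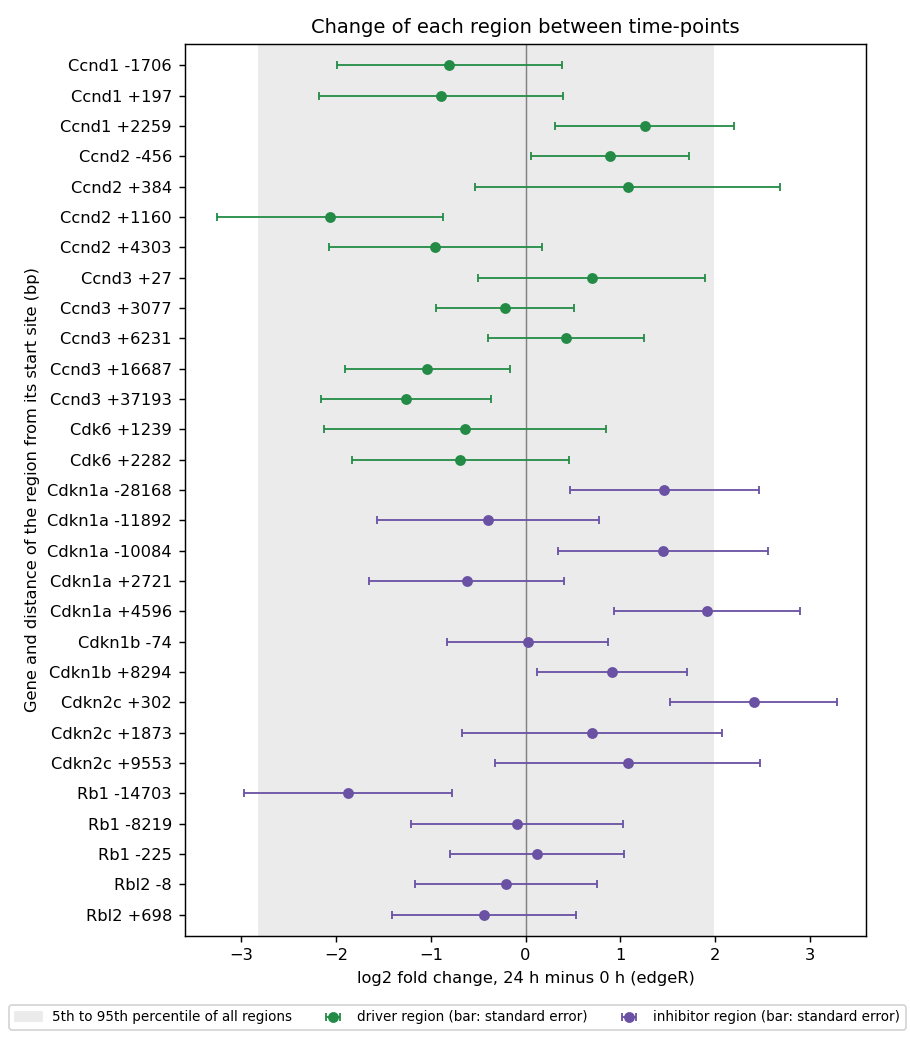
log2 fold change, 24 hours minus 0 hours, of each member region with its standard error from edgeR (green, drivers; purple, inhibitors). The grey band runs from the 5th to the 95th percentile of all regions, -2.82 to 1.98, and the Cdkn2c region at +302 (2.41) is the 1 member outside it.

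Ccnd3, the D cyclin with the most regions, had more signal at 0 hours in 2 regions deep in its introns, and overlapping runs in the other 3. The region 16687 bp from the start had signal in 8 and 4 cells of the 0-hour runs and in 4 and 2 cells of the 24-hour runs, or 16.7%, 8.51%, 6.67% and 2.78% of cells. The region 37193 bp from the start had signal in 8, 4, 4 and 1 cells, or 16.7%, 8.51%, 6.67% and 1.39%. In both, each 0-hour run lay above each 24-hour run, as deposited and after thinning.

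The log2 differences of these 2 Ccnd3 regions were -1.04 (SE 0.87) and -1.26 (SE 0.90), with edgeR adjusted p of 0.690 and 0.615, and they ranged from -2.24 to -0.36 and from -3.22 to -0.43 with each run left out. Nearer the start, the regions at 3077 and 6231 bp had signal in 5, 6, 7 and 3 cells and in 8, 3, 7 and 3 cells, with 24-hour run 3 among the 0-hour runs. The region over the UTR at the start, 27 bp downstream of the start on chromosome 17 from 47504981 to 47505175, had signal in 1, 2, 3 and 2 cells, with a log2 difference of 0.70 (edgeR adjusted p = 0.873) that was -0.23 to 2.37 with each run left out. A further region, 46 bp upstream of an alternative Ccnd3 start but nearer the annotated gene start of Bysl, was not a member by the rule. It had signal in 6, 3, 9 and 5 cells, and the runs overlapped. Its log2 difference was 0.51 (SE 0.75, edgeR adjusted p = 0.847).

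Ccnd2 had regions on both sides of 0. The region 1160 bp downstream of the start, over a UTR at the start of another annotated transcript on chromosome 6 from 127150972 to 127151094, had the lowest log2 difference of all members. It had signal in 5 and 4 cells at 0 hours and in 1 and 1 cells at 24 hours, which was 9.47% of 0-hour cells (exact 95% binomial interval 4.42% to 17.2%) and 1.52% of 24-hour cells (0.184% to 5.37%). The log2 difference was -2.06 (SE 1.19), with an edgeR adjusted p of 0.509.

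The region 456 bp upstream of the Ccnd2 start, in an intron of the noncoding gene 9330179D12Rik, went the other way. It had signal in 3 and 3 cells at 0 hours and in 5 and 8 at 24 hours, both 24-hour shares (8.33% and 11.1%) lying above both 0-hour shares (6.25% and 6.38%). The log2 difference was 0.89 (SE 0.83, edgeR adjusted p = 0.727) and 0.30 to 1.62 with each run left out. Of the 2 remaining Ccnd2 regions, the one 384 bp from the start had signal in 0, 2, 1 and 2 cells. The one 4303 bp from it had signal in 4, 3, 0 and 3 cells, both 0-hour shares (8.33% and 6.38%) lying above both 24-hour shares (0% and 4.17%), as deposited and after thinning. Its log2 difference was -0.95 (SE 1.13, edgeR adjusted p = 0.798). With each run left out that difference ranged from -5.53 to 0.0067, so its sign changed. The low end comes from the fit whose 1 remaining 24-hour run had no count there, and it measures no fold. A count of 0 allows a share of up to 6.25% in run 1 and 5% in run 3.

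Ccnd1, the D cyclin that many other tissues use, had 3 sparse regions. Cells with signal numbered 3, 2, 1 and 2 in the region 1706 bp upstream, 4, 1, 2 and 1 over a coding exon 197 bp from the start, and 3, 2, 7 and 2 in the intron at 2259 bp. The upstream region had both 0-hour runs above both 24-hour runs, and the high value of the intronic region was in 24-hour run 3 alone. Its log2 difference of 1.26 (SE 0.95, edgeR adjusted p = 0.642) was 0.11 to 1.92 when each run was left out.

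Cdk6, the kinase partner of the D cyclins, had signal in 3, 1, 1 and 2 cells at 1239 bp and in 2, 4, 3 and 2 cells at 2282 bp. The runs of the 2 time-points overlapped in both regions. The sequence of the region at 2282 bp matched 4 places in the genome, its own included, at 90% identity over 80% of its length, so reads could have been shared with its copies.

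Among the inhibitors, Cdkn2c carried the largest log2 difference of the set by size. Its region 302 bp downstream of the start, over a UTR on chromosome 4 from 109666811 to 109666964, had signal in 2 and 1 cells at 0 hours and in 7 and 11 cells at 24 hours. These were 4.17% and 2.13% of cells against 11.7% and 15.3%, and after thinning 0.961% and 1.63% against 5.50% and 9.57%, with no overlap in either. Over all cells of a time-point the shares were 3.16% (exact 95% binomial interval 0.656% to 8.95%) and 13.6% (8.29% to 20.7%). These intervals take in counting error alone, not the spread between runs.

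The log2 difference of this Cdkn2c region was 2.41 (SE 0.88, edgeR p = 0.00867 before adjustment and 0.252 after). It was 2.05 to 3.20 with each run left out. The other 2 Cdkn2c regions were less even. At 1873 bp, cells with signal numbered 1, 3, 5 and 0, and the count of 0 in run 4 allows a share of up to 4.17%. At 9553 bp, over an exon of the noncoding gene 9630013D21Rik, they numbered 1, 2, 2 and 3.

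Cdkn1a, a target of p53 that arrests the cycle after DNA damage, had its clearest difference in the intron 4596 bp from the annotated start. Signal was found there in 0 and 3 cells at 0 hours and in 6 and 10 cells at 24 hours, or 0%, 6.38%, 10.0% and 13.9% of cells. The 0 of run 1 allows a share of up to 6.25%. After thinning the shares were 0%, 3.82%, 3.81% and 7.93%, so that 0-hour run 2 and 24-hour run 3 were level. The log2 difference was 1.92 (SE 0.98, edgeR p = 0.0565 before adjustment and 0.429 after), and it was 0.70 without run 1. Without run 2 no count was left at 0 hours, so no fold can be given.

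The other 4 Cdkn1a regions varied. In the Trp53cor1 intron 28168 bp upstream cells with signal numbered 3, 1, 9 and 2, high in run 3 alone. Over an exon of that noncoding gene, 11892 bp upstream, they numbered 4, 3, 3 and 2, and both 0-hour shares were above both 24-hour shares as deposited. After thinning that order was lost, with 2.61%, 1.92%, 4.35% and 1.42% of cells. At 10084 bp upstream they numbered 3, 0, 4 and 3, and after thinning both 24-hour shares (3.79% and 3.16%) were above both 0-hour shares (2.81% and 0%). At 2721 bp downstream, beside an alternative Cdkn1a start, they numbered 7, 0, 1 and 4, and both the highest and the lowest run were from 0 hours.

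Cdkn1b, which restrains cyclin and kinase complexes in resting lymphocytes, was open at its start at both time-points. The region 74 bp upstream had signal in 7, 4, 7 and 4 cells (14.6%, 8.51%, 11.7% and 5.56%), and the log2 difference was 0.02 (SE 0.85). The region at 8294 bp, within 1 kb of the start of the noncoding gene Lockd, had signal in 5, 2, 3 and 12 cells. There the high share was that of run 4 alone, 16.7% against 4.26% to 10.4% in the other runs, and without run 4 the log2 difference turned to -0.48 from 0.91.

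Rb1 and Rbl2, the pocket proteins, had values near or below 0. At the Rb1 start, 225 bp upstream, signal was in 10, 1, 4 and 6 cells, and the widest gap of any member lay between the 2 runs of 0 hours, 20.8% and 2.13%. At 8219 bp upstream it was in 3, 3, 4 and 3 cells. At 14703 bp upstream it was in 3, 5, 2 and 1 cells, with a log2 difference of -1.87 (SE 1.09, edgeR adjusted p = 0.515) that was -2.51 to -0.94 with each run left out. The sequence of that region matched 146 places in the genome, its own included. Rbl2 had signal in 4, 3, 4 and 3 cells at its start and in 5, 3, 2 and 4 cells 698 bp downstream, with log2 differences of -0.20 (SE 0.96) and -0.44 (SE 0.97). With each run left out these were -0.67 to 0.34 and -1.47 to 0.14, so both changed sign.

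Shares of cells without overlap between the time-points were counted for all members. As deposited, both 0-hour runs were above both 24-hour runs in 8 members (27.6%; 5 driver and 3 inhibitor regions), against 33.7% of all regions. Both 24-hour runs were above both 0-hour runs in 3 members (10.3%; 1 driver and 2 inhibitor regions), against 8.59%. After thinning these were 9 members (31.0%, 6 and 3), against 26.5%, and 5 members (17.2%, 2 and 3), against 17.4%. The members' shares stood close to those of the whole matrix.

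The regions of each gene were then summed, because single regions were sparse. None of the 9 genes passed the edgeR test with adjustment over 9894 genes, of which 16 were called higher at 24 hours (0.162%) and 19 lower (0.192%). At an unadjusted p below 0.05 there was 1 member higher, Cdkn2c, against 5.77% of all genes, and 0 lower, against 6.23%. DESeq2 also gave 1 and 0 without adjustment, against 2.35% and 3.31% of all genes. The median log2 difference was -0.38 over the 4 driver genes and 0.39 over the 5 inhibitor genes, against 0.04 over all genes.

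The Cdkn2c sum was 42.5 and 75.8 CPM in the 0-hour runs and 181 and 166 CPM in the 24-hour runs. All its 24-hour values were above its 0-hour values, and the log2 difference was 1.61 (SE 0.65, edgeR p = 0.0148 before adjustment and 0.257 after). The Cdkn1a sum was 206 and 114 CPM against 290 and 261 CPM, without overlap (log2 difference 0.73, SE 0.46, edgeR adjusted p = 0.564). That difference was 1.26 without run 1, 0.43 without run 2, 0.45 with regions within 10 kb alone and 0.31 with cell numbers as offset. The Cdkn1b sum, at 120 and 114 CPM against 118 and 190 CPM, overlapped.

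The Rb1 sum was 142 and 190 CPM at 0 hours and 99.7 and 111 CPM at 24 hours, lower without overlap (log2 difference -0.63, SE 0.57, edgeR adjusted p = 0.735). Without the region 14703 bp upstream, which has copies elsewhere in the genome, the sum was 106 and 75.8 CPM against 81.5 and 94.8 CPM, with overlap, and the log2 difference within 10 kb was -0.19. The Rbl2 sum was 85.0 and 139 CPM against 63.4 and 94.8 CPM, with overlap. Of the inhibitors, the 3 CDK inhibitor genes thus had positive and the 2 pocket protein genes negative differences, none past the threshold.

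Among the drivers, the Ccnd3 sum was 312 and 417 CPM at 0 hours and 399 and 134 CPM at 24 hours, so that its low value came from run 4 alone (log2 difference -0.45, SE 0.41, edgeR adjusted p = 0.736). Without run 4 the log2 difference was 0.15, without run 3 it was -1.41, and with regions within 10 kb alone it was -0.048. With regions assigned by transcript start sites it was -0.27. The Ccnd1 sum (113 and 101 against 163 and 63.2 CPM) and the Ccnd2 sum (113 and 253 against 90.6 and 190 CPM) overlapped between time-points. The Cdk6 sum did not overlap, at 49.6 and 88.5 CPM against 36.2 and 39.5 CPM, with a log2 difference of -0.80 (SE 0.91, edgeR adjusted p = 0.809) that was -1.20 without run 1 and -0.37 without run 2. Of the 9 member genes, 2 lay without overlap higher at 0 hours and 2 higher at 24 hours, against 21.9% and 21.5% of all genes.

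**Figure D4:**
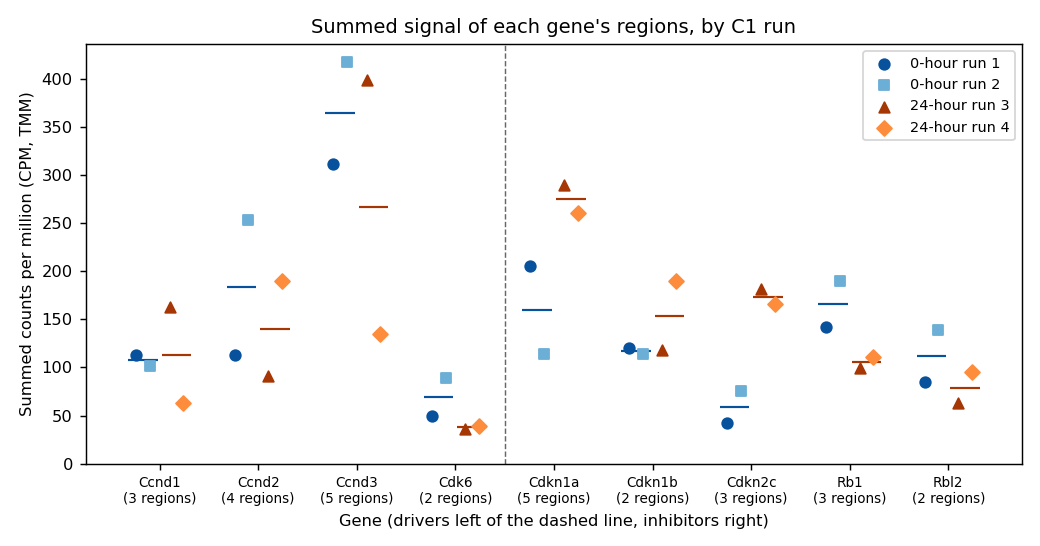
Summed signal of the regions of each member gene in CPM (vertical axis, TMM-normalized) by C1 run; short lines are the means of the 2 runs of a time-point. The runs of the time-points do not overlap for Cdk6 and Rb1, lower at 24 hours, and for Cdkn1a and Cdkn2c, higher at 24 hours.

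Drivers and inhibitors were then set against each other as groups, with no test, since the members were chosen with earlier results known. A cell was counted for a group when any of its regions had signal. Driver signal was found in 64.6% and 55.3% of the cells of the 0-hour runs and in 43.3% and 37.5% of the cells of the 24-hour runs. The mean difference, 24 hours minus 0 hours, was -19.5 percentage points, against an SD between the runs of a time-point of 5.47 points. Signal at pre-B marker starts had the same order of runs, 72.9%, 61.7%, 55.0% and 48.6% of cells, as had the drivers; the part of depth or of these markers in the driver shares as deposited was not tested. After thinning the shares were 31.2% and 38.9% against 31.1% and 22.5%, so that 0-hour run 1 and 24-hour run 3 were level, and the difference was -8.24 points with an SD of 5.77. Without run 3 that difference was -12.5 points, and without run 4 it was -3.93.

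Inhibitor signal was found in 64.6% and 46.8% of cells at 0 hours and in 61.7% and 55.6% at 24 hours, a mean difference of 2.92 points that was smaller than the SD between runs of 9.40. After thinning the shares were 31.6% and 30.5% against 45.8% and 41.4%, with both 24-hour runs above both 0-hour runs and a difference of 12.6 points (SD 2.27). The gap lay in the CDK inhibitors, with 21.3% and 18.6% against 35.5% and 33.9% after thinning. The pocket proteins had 13.6% and 16.1% against 12.0% and 10.2%. Their regions include the one 14703 bp upstream of Rb1, with signal in 3, 5, 2 and 1 cells, whose sequence is not unique in the genome. As sums scaled to the total of each run, the inhibitors had 511 and 540 CPM against 677 and 729 CPM without overlap, and the drivers had 505 and 734 CPM against 620 and 379 CPM with overlap.

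**Figure D5:**
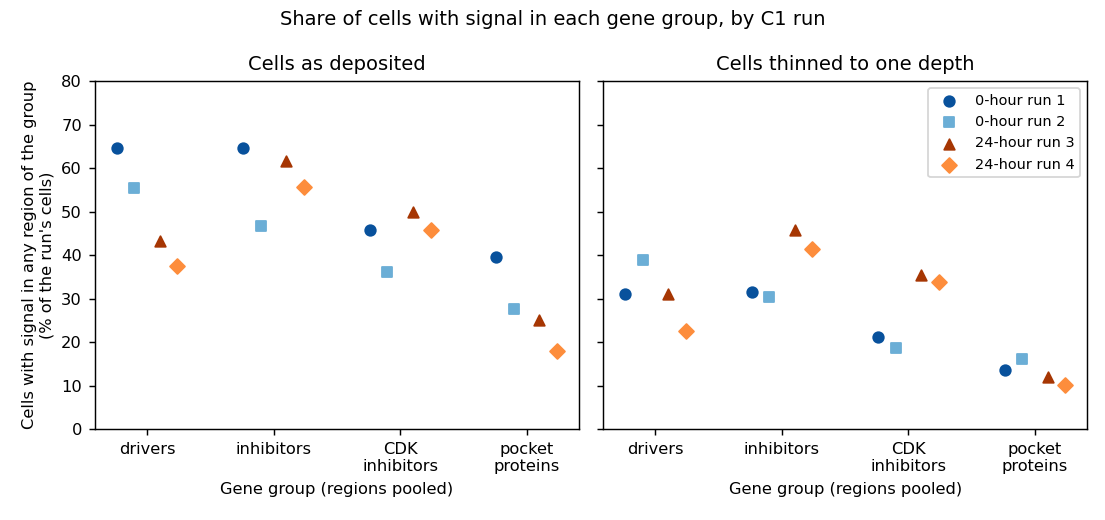
Share of the cells of each C1 run with signal in any region of a gene group (vertical axis, percent), as deposited on the left and after thinning every cell to the same number of counts on the right. After thinning, the CDK inhibitors lie at 33.9% to 35.5% in the 24-hour runs and at 18.6% to 21.3% in the 0-hour runs, while in the drivers 0-hour run 1 and 24-hour run 3 meet.

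Of the counts in member regions, drivers held 49.7% and 57.6% at 0 hours and 47.8% and 34.2% at 24 hours. This share was not thinned, and whether it depends on depth was not tested. The runs did not overlap, although run 3 lay close to run 1, and the mean difference of -12.7 points stood against an SD between runs of 7.88. It was -19.5 points without run 3 and -5.87 without run 4. Cells with signal at both groups numbered 22, 13, 17 and 14 in runs 1 to 4. Cells with inhibitor signal alone numbered 9 and 9 at 0 hours (18.8% and 19.1%) and 20 and 26 at 24 hours (33.3% and 36.1%). Cells with driver signal alone numbered 9 and 13, and 9 and 13, or 18.8%, 27.7%, 15.0% and 18.1%. These shares were not thinned.

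The rest of the pathway was followed in a list of 35 genes of E2F, cyclin E and A, CDK activation and pocket protein complexes, of which 27 had a region. None of their gene sums passed the edgeR test, 10 were below 0 and 17 above, against 48.2% of all genes below 0, and the median was 0.15. Without overlap between time-points, 4 were lower and 8 higher at 24 hours, against 21.9% and 21.5% of all genes. The 2 lowest of these were Mnat1, a subunit of the CDK-activating kinase, at 35.4 and 37.9 CPM against 18.1 and 7.90 CPM, and E2f4, a partner of pocket proteins, at 63.8 and 126 CPM against 45.3 and 23.7 CPM. Their log2 differences were -1.44 (SE 1.36) and -1.40 (SE 0.86).

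The 2 highest were Fbxw7, which targets cyclin E for destruction, and E2f5. Fbxw7 stood at 85.0 and 63.2 CPM against 226 and 174 CPM (log2 difference 1.38, SE 0.58, edgeR adjusted p = 0.289), and E2f5 at 56.7 and 12.6 CPM against 72.5 and 103 CPM (1.17, SE 0.83, edgeR adjusted p = 0.609). E2f3, an activating E2F, was singled out after its values were seen. Its 4 regions summed to 482 and 581 CPM at 0 hours and 208 and 205 CPM at 24 hours, with a log2 difference of -1.35 (SE 0.39) and the smallest adjusted p of the list, 0.0812. Without run 3 that p was 0.0363, and with other runs left out it was 0.197 to 0.752. In the fit without run 3, 1 run stood for the 24-hour group and its spread was taken from the 0-hour runs, and 282 of all genes were called higher and 246 lower, against 16 and 19 with all runs.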

How the data were processed

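Single-cell ATAC-seq of 259 labelled cells was described, and 227 of them, those with a column in the matrix, were analysed. The authors mapped reads to mm10 with Bowtie2, removed duplicates with Picard, called peaks on bulk samples with HOMER, and deposited whole-number counts of 20103 regions by 227 cells, without normalization. No value exceeded 2, and the sources used here do not say what became of higher ones. The study's text describes more regions than the matrix holds, which were not analysed here, and a slightly different split of the cells between time-points. The 6 bulk samples were not analysed here.

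Cells of a C1 run were pooled by adding their counts (4 runs, 92639 to 164357 counts), and edgeR 4.0.16 in R 4.3.3 was run on these sums (quasi-likelihood test, TMM, Benjamini-Hochberg adjustment, threshold 0.05) over all regions and on all gene sums, with no filter on low counts. DESeq2 1.42.0 was an alternative. CPM are TMM-normalized, except for group sums. The scripts were tested on simulated data. No doublet caller was run, since capture sites had been inspected. Thinning gave the share expected at 837 counts per cell, the 10th percentile. Intervals are exact binomial ones at 95%, limits for a count of 0 are 3 counts of the total, and both cover counting error only. Regions were annotated with GENCODE vM21 and compared with the genome by BLAST 2.17.0.

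All 10 genes with all their regions are named. Of the 35 further pathway genes, those named are the ones past the threshold or, with none, the 2 lowest and 2 highest without overlap between time-points, and E2f3. Members and lists were chosen with earlier results of these data known.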

Additional observations from a re-analysis of the deposited data

How the results depend on the processing

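A fit with the run number as a block was chosen after seeing the data. The labels number the runs 1 to 4, whereas the matrix columns number them 1 and 2 within each time-point, and no source says that a number marks a shared culture or day. Deviations of same-numbered runs from their time-point's mean had a correlation of -0.023 over regions and -0.022 over gene sums. With the block, 0 member regions and 0 member genes passed (edgeR, smallest adjusted p 0.530 and 0.397), and at an unadjusted p below 0.05 there were 2 member regions and 1 member gene, all higher at 24 hours, against 3.30% of all regions and 4.10% of all genes higher and 4.26% and 5.08% lower. Over all genes it called 5 higher and 7 lower, against 16 and 19 without it, and over all regions 9 higher and 2 lower, against 8 and 3. No member region or gene sum passed the threshold under any alternative run (DESeq2, run totals without TMM, number of cells as offset, detected or not detected, or each run left out; thinned cells for regions only; transcript start sites and regions within 10 kb for gene sums only). In DESeq2, 1 of the 9 gene sums was given an adjusted p. Keeping only regions in at least 10% of cells gave no value, since no member reached it. Thinning moved the difference in driver share of cells from -19.5 to -8.24 percentage points and that of the inhibitors from 2.92 to 12.6. With regions assigned by transcript start sites, the difference as deposited was -15.7 points for drivers and 2.92 points for inhibitors. With each run left out, the deposited differences were -24.2 to -14.9 points for drivers, -5.97 to 11.8 points for inhibitors, and -19.5 to -5.87 points for the driver share of the members' signal. Of the 9 gene sums 5, and of the 9 regions nearest a start 2, had 1 sign throughout. The log2 differences that changed sign follow, and the cause was not tested. The Ccnd1 sum (0.05) was -0.31 with cell numbers as offset, -0.079 as detected or not, and -0.058 within 10 kb. After thinning, the nearest Ccnd2 region (1.08) was -0.12 and the nearest Cdkn1a region (-0.62) was 0.25. The nearest Cdkn1b region (0.02) was -0.021 without TMM and -0.43 with cell numbers as offset. The nearest Rb1 region (0.12) was -0.48 with that offset and -0.016 as detected or not, and the nearest Rbl2 region (-0.20) was 0.060 as detected or not. With each run left out, the sums ranged from -0.77 to 0.58 (Ccnd1), -0.92 to 0.33 (Ccnd2), -1.41 to 0.15 (Ccnd3) and -0.0018 to 0.68 (Cdkn1b). The nearest regions ranged from -0.11 to 4.49 (Ccnd2), -0.23 to 2.37 (Ccnd3), -1.10 to 0.15 (Cdk6), -1.53 to 4.91 (Cdkn1a), -0.54 to 0.44 (Cdkn1b), -0.55 to 2.16 (Rb1) and -0.67 to 0.34 (Rbl2). The highest values for Ccnd2 and Cdkn1a come from fits whose 1 remaining 0-hour run had no count there, so they depend on how the fit treats 0 and measure no fold.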
